A study of Mus musculus with 46 samples.

Results

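Annexins are calcium-dependent membrane-binding proteins, and S100 proteins are small proteins, most of them calcium sensors, that bind annexins and other targets. Their genes were followed in EPP2 cells, a murine pancreatic cancer line in which Ctu1 had been disrupted and mTOR inhibited. The members are the 6 annexin genes Anxa1, Anxa2, Anxa3, Anxa5, Anxa8 and Anxa11 and the 4 S100 genes S100a4, S100a6, S100a10 and S100a11, found by symbol, and all 10 are among the 9857 symbols that the DMSO and torin 1 tables share. These symbols were chosen on measured values, with earlier results of the same footprint and RNA counts known, and which contrast decided is not recorded. Counts and medians over the members are therefore descriptions with no test, and the adjusted p-values of single members come from fits across all genes but are not independent of the choice.

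Cultures in 4 groups gave libraries of ribosome footprints and of poly(A) RNA. Control cells (genotype WT in the labels) and Ctu1 iKO cells each received either DMSO or 300 nM torin 1, an inhibitor of the mTOR kinase, for 2 h. Cas9 came from a doxycycline-inducible cassette in cells grown from a single-cell clone, and the knockout was induced with 300 ng/mL doxycycline 4 days earlier. Control cells carried guides to chromosome regions without genes or were not given doxycycline, and the sources do not tell which applies to the libraries used here. Each group had 6 footprint libraries, except Ctu1 iKO with DMSO, which had 5. Of RNA, replicates 1 to 3 of each group were used. The study's methods describe footprint experiments in 2 independent replicates on consecutive days, whereas its legends and the labels give 5 or 6. Within the 3 groups of 6, footprint libraries 1 and 2, 3 and 4, and 5 and 6 differed less (21.7 to 60.1 times the counting variance) than most other pairs (33.9 to 139), so n may overstate the independent cultures and p-values may be too small. Levels of the members are CPM, each count relative to its library total, after scaling by the trimmed mean of M values (TMM), a factor that makes libraries comparable over most genes. Levels of Ctu1 and of cell type markers are CPM of the library totals without that factor.

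Annexins bind acidic phospholipids through repeated calcium-binding cores, and the variable N-terminus in front of the core holds the binding sites for S100 proteins. An S100 dimer can bind the N-termini of a pair of annexins and so link them, as S100a10 does with Anxa2, S100a11 with Anxa1 and S100a6 with Anxa11. Annexin and S100 proteins act in membrane repair, endocytosis, plasminogen activation and cell motility, and several of them are abundant in pancreatic cancer cells. Ctu1 is a subunit of the cytosolic thiouridylase, which modifies the wobble uridine of the tRNAs that read AAA, GAA and CAA codons.

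Footprint libraries held 4602092 to 52907878 counts and RNA libraries of replicates 1 to 3 held 129881946 to 293648854. All RNA counts were even numbers, so that each fragment appears to have been counted as 2, and RNA counts overstate the number of fragments by that factor. Anxa8 had the fewest counts of the members. Along the axis from DMSO (0) to torin 1 (1) set by replicates 1 and 2, footprint libraries with DMSO lay between 0.03 and 0.25 and those with torin 1 between 0.40 and 0.64, without overlap, although 2 of the 12 libraries with torin 1 lay nearer to 0 than to 1. RNA libraries of replicates 1 to 3 lay between -0.17 and 0.08 with DMSO and between 0.62 and 1.06 with torin 1. From replicate 4 on, 2 of 5 RNA libraries labelled DMSO and 4 of 6 labelled torin 1 lay nearer to the other treatment, so results on RNA leave these libraries out. Ctu1 RNA was 4.62 ± 0.12 CPM in control and 4.63 ± 0.30 CPM in Ctu1 iKO with DMSO (SD, n = 3), and Ctu1 footprints were 2.53 ± 0.65 CPM (SD, n = 6) and 1.79 ± 0.42 CPM (SD, n = 5). The cells carried a pair of guides to Ctu1, and counts per gene do not show the edit, so this neither checks nor contradicts the labels. Of 7 epithelial markers, Krt8, Krt18 and Krt19 were listed in every table and Epcam in the DMSO tables alone, while Krt7, Cdh1 and Cldn4 were listed in none. Of 7 mesenchymal markers, 6 were listed, among them Vim, Fn1 and Thy1, and a guide vector of the study carried a Thy1.1 marker. Of 5 leukocyte markers, Cd68 and Cd14 were listed with DMSO and Cd14 alone with torin 1, and no endothelial or acinar marker was listed. The summed RNA level of the listed mesenchymal markers was 5321 to 6755 CPM in control and 6516 to 9854 CPM in Ctu1 iKO with DMSO, and 7195 to 9045 CPM and 10906 to 18493 CPM with torin 1. Vim and Fn1 make up most of these sums. Mean RNA levels of 4 of the 6 were higher in Ctu1 iKO with DMSO, while Col1a1 had 128 CPM in control and 123 CPM in Ctu1 iKO and Pdgfrb 29.8 and 28.3 CPM, and with torin 1 all 6 means were higher. The epithelial sums were higher in Ctu1 iKO too, without overlap, at 267 to 283 CPM in control and 295 to 364 CPM in Ctu1 iKO with DMSO and at 345 to 378 CPM and 478 to 526 CPM with torin 1, although the mean of Krt19 was lower in Ctu1 iKO with DMSO. The leukocyte sums were low and likewise higher in Ctu1 iKO without overlap, at 4.51 to 5.14 CPM in control and 5.79 to 6.18 CPM in Ctu1 iKO with DMSO and at 3.30 to 3.99 CPM and 5.12 to 5.91 CPM with torin 1. With TMM scaling the epithelial and leukocyte RNA sums did not overlap either, and the mesenchymal ones overlapped with DMSO alone, as without it. In footprints the mesenchymal sums overlapped between genotypes, at 5595 to 7773 and 5597 to 9343 CPM with DMSO. The part of these markers in the changes described here was not tested.

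The coding sequences differ widely in the codons that the Ctu1-dependent tRNAs read. AAA, GAA and CAA together make up 10.7% of the 346 codons of Anxa1 and 8.67% of those of Anxa3, which lie at percentiles 87.9 and 75.3 of all listed genes with a coding sequence, while Anxa11 has 1.99% and lies at percentile 4.4. The median of all listed genes is 6.06%. The other annexins lie between 5.20% for Anxa8 and 5.96% for Anxa5, and the S100 genes between 5.62% for S100a6 and 8.25% for S100a10. S100a11 has 4.08% CAA, at percentile 98.9, and a single AAA among its 8 lysine codons. S100a6 likewise uses AAA for 1 of 10 lysine codons, against 13 of 29 in Anxa1 and 12 of 26 in Anxa3. With the longest annotated coding sequence in place of the principal one, all 10 values stayed as they were.

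Stretches of coding sequence that show this contrast are printed here from the GENCODE M21 transcripts (GRCm38), 5′ to 3′ and in frame, with AAA, GAA and CAA codons in capitals. For Anxa1 (chromosome 19, minus strand, 20373428 to 20390944) codons 1 to 100 are shown, which hold the N-terminus and 13 such codons. For Anxa3 (chromosome 5, plus strand, 96793339 to 96845966) codons 97 to 196 are shown, its densest window of 100 codons, also with 13. For Anxa11 (chromosome 14, plus strand, 25842156 to 25886804) codons 219 to 318 are shown, its densest window, with 8. The window of Anxa1 is its densest as well, and codons 1 to 100 hold 8 in Anxa3 and none in Anxa11. S100a11 (chromosome 3, plus strand, 93520488 to 93526287), S100a10 (chromosome 3, plus strand, 93555080 to 93564643) and S100a6 (chromosome 3, plus strand, 90612882 to 90624181) are shown whole without the stop codon, with 6, 8 and 5 such codons.
Anxa1: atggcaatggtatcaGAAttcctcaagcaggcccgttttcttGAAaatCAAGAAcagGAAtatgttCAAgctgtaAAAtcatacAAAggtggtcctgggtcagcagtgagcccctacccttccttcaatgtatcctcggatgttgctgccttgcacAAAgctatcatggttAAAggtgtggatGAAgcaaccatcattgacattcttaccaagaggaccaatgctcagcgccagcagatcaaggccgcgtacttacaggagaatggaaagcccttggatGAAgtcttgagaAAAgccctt
Anxa3: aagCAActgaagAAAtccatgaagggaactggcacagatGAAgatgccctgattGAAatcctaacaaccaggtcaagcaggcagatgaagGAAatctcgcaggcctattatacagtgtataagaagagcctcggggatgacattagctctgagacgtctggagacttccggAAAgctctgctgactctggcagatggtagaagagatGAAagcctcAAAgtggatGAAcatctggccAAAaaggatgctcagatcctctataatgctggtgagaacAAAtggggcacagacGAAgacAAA
Anxa11: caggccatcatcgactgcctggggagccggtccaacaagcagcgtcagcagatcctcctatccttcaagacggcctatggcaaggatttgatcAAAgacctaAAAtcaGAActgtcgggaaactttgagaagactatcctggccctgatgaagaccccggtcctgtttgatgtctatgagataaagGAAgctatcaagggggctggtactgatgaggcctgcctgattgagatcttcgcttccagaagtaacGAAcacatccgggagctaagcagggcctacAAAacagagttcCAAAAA
S100a11: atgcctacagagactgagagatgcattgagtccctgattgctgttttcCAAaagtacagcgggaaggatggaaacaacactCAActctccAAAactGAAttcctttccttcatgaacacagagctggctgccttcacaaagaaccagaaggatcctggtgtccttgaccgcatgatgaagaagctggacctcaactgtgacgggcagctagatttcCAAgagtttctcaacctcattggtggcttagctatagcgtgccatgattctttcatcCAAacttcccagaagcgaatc
S100a10: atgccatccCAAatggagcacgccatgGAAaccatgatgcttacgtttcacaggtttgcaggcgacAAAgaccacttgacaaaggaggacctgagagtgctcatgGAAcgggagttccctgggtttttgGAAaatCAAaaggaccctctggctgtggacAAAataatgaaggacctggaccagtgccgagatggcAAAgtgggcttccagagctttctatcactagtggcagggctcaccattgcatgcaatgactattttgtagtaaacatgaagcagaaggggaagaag
S100a6: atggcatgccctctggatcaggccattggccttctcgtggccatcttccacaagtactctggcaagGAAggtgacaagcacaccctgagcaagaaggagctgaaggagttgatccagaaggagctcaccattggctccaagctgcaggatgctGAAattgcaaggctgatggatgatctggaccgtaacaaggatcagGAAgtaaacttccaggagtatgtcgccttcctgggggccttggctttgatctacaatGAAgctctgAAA

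**Figure D1:**
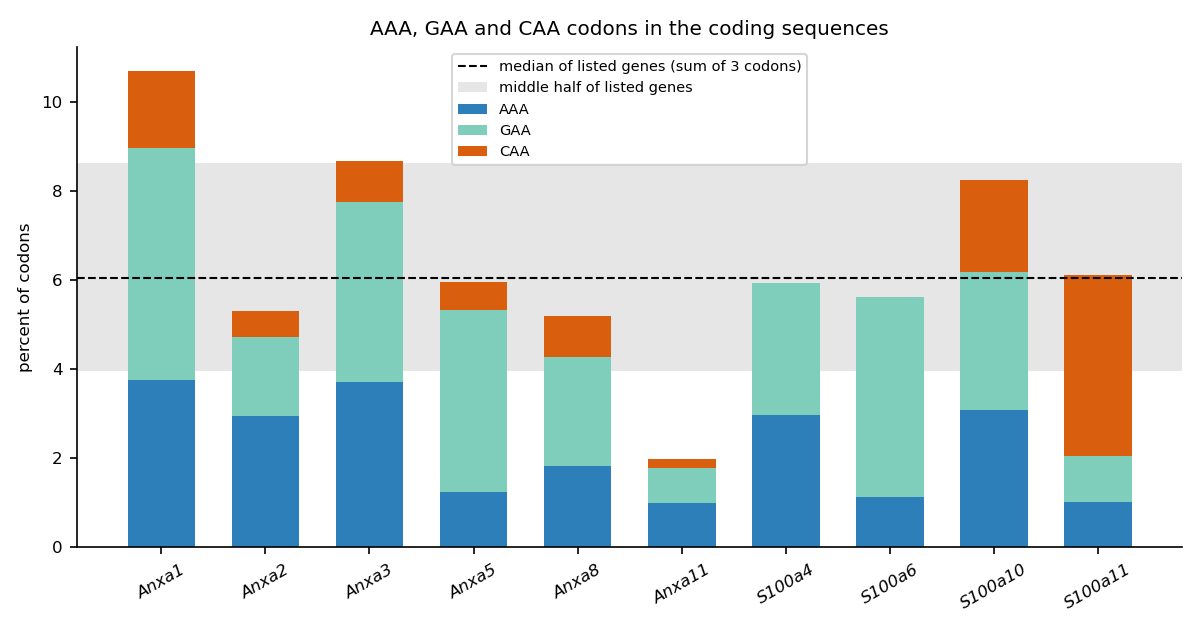
Percent of codons (y axis) that are AAA, GAA or CAA in the principal coding sequence of each of the 10 genes (x axis), stacked, with the median of all listed genes as a dashed line and the range between their quartiles as a grey band. Anxa1 reaches 10.7%, above the band, and Anxa11 with 1.99% lies below it, while S100a11 stands out for CAA with 4.08%.

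The remaining members lie on chromosome 9 (Anxa2, 69453620 to 69491795, plus strand), chromosome 14 (Anxa8, 34085981 to 34100571, plus strand) and chromosome 3 (Anxa5, 36448923 to 36475894, minus strand, and S100a4, 90603771 to 90606045, plus strand) of GRCm38. Reads of some members could be shared with other genes. S100a11 has 5 processed pseudogenes with a close match, of which Gm12854 and Gm7665 match its whole coding sequence at 98.98% and 98.64% identity. S100a4 shares 302 of its 584 exon bases with the overlapping gene Gm42674 on the same strand. Exons of Anxa2 and Anxa11 overlap antisense genes over 98 and 113 bases, and those of Anxa3 overlap Gm42603 over 112 bases. The study's methods name STAR's own gene counting for footprints, which by default leaves out reads that map to several places or overlap several genes on the strands counted. The strand setting, and how RNA reads were counted, are not given in the sources used here, so the levels of these genes are uncertain by that share.

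Among the members, S100a6 was by far the most translated per length. In control cells with DMSO its footprint level was 14658 ± 1375 CPM per kilobase of coding sequence (SD, n = 6), followed by S100a10 with 2053 ± 180, S100a4 with 1479 ± 275, Anxa1 with 1357 ± 130, Anxa2 with 1099 ± 125, S100a11 with 706 ± 33, Anxa5 with 670 ± 39, Anxa3 with 133 ± 10, Anxa11 with 68.4 ± 4.9 and Anxa8 with 2.69 ± 2.01 CPM per kilobase. Of neighbours in that order, S100a4 and Anxa1 were apart by less than the SD of S100a4, and S100a11 and Anxa5 by less than that of Anxa5. RNA levels per kilobase of coding sequence were likewise highest for S100a6, at 8635 ± 1182 (SD, n = 3), and lowest for Anxa8, at 1.58 ± 0.84, in control cells with DMSO. Per kilobase of transcript, S100a6 RNA was at 3154 ± 432 in that group. Dividing by transcript length kept S100a6 at the top and Anxa3, Anxa11 and Anxa8 at the end, and exchanged S100a10 and S100a4 in footprints. In RNA of control cells with DMSO it moved S100a10 from rank 3 to 5 and Anxa2 from rank 5 to 3.

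**Figure D2:**
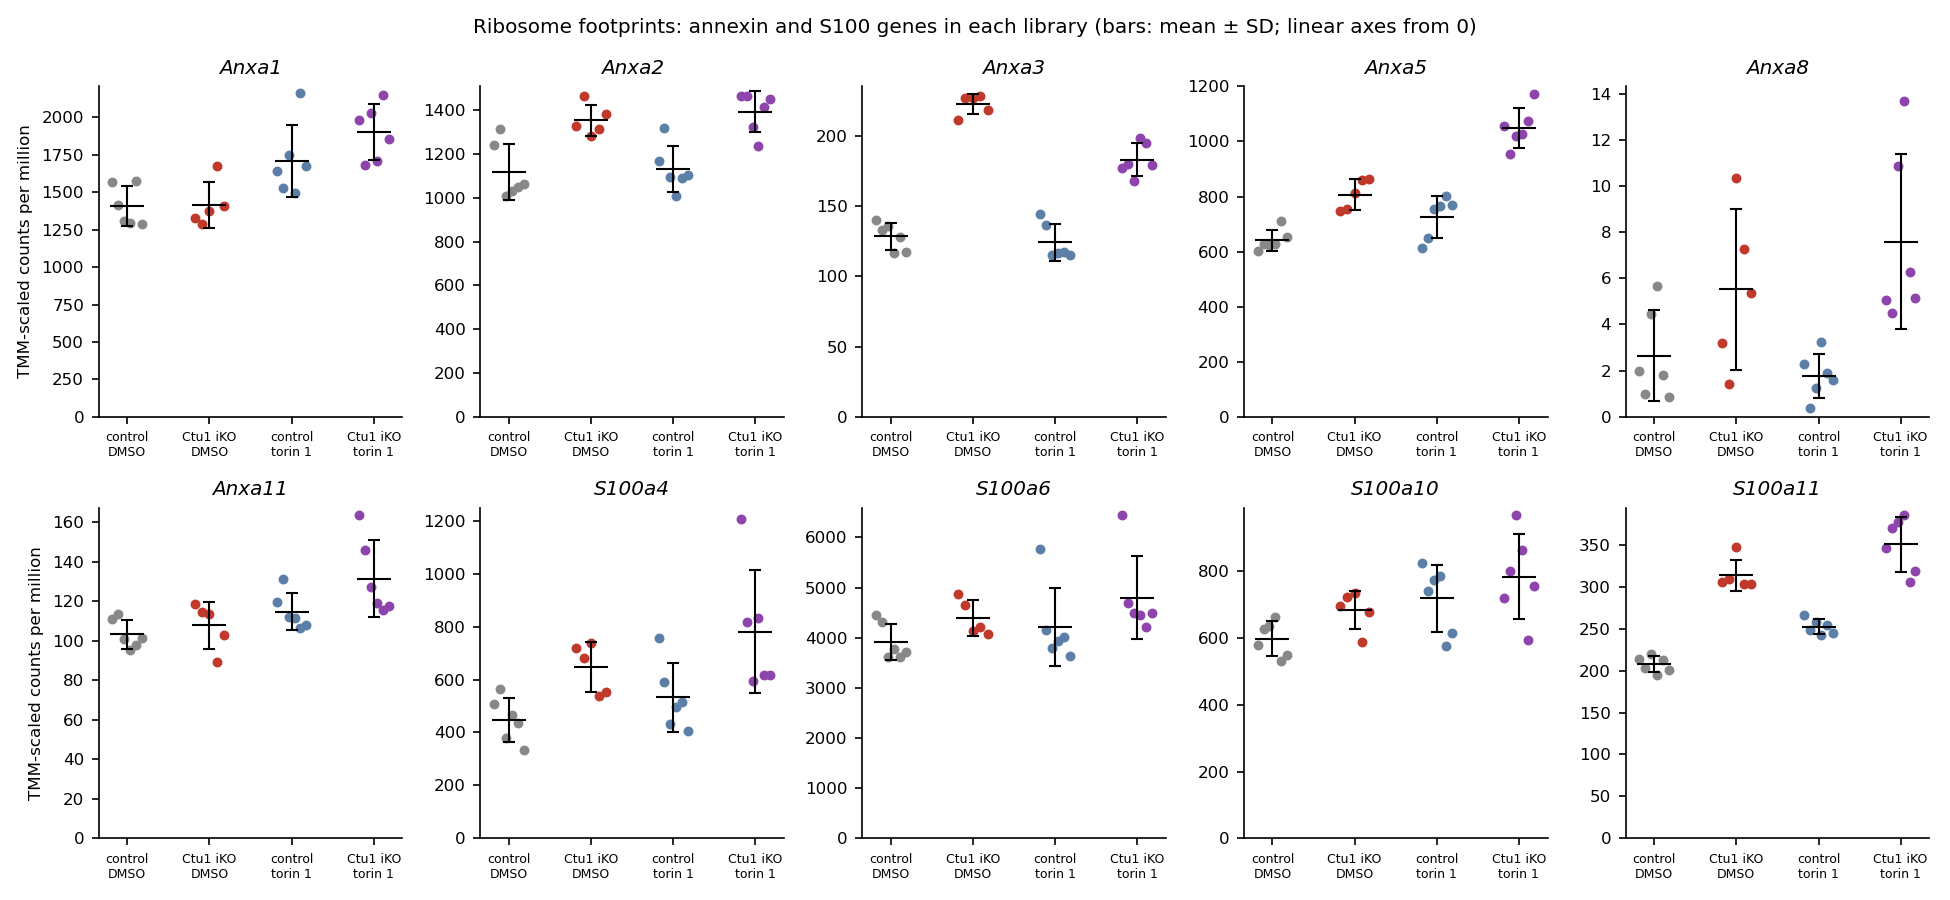
Footprint level (y axis, TMM-scaled CPM, linear from 0) of each member in every library, by group (x axis), with points for libraries and bars for mean ± SD. Anxa3, Anxa5 and S100a11 of Ctu1 iKO lie above all control libraries of the same treatment, whereas Anxa1 overlaps between the genotypes with DMSO. Of all genes, 2.34% were higher in that way with DMSO and 1.8% with torin 1.

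The first comparison asked how footprints differed after loss of Ctu1 without torin 1. Anxa3, S100a11 and Anxa5 rose, and none of the members fell, in a comparison that called 277 of 10397 genes (2.66%), of which 169 were higher and 108 lower (218 and 80 with library totals in place of TMM). The log2 changes of the members ranged from 0.01 for Anxa1 to 1.08 for Anxa8 with a median of 0.31, and the median of all genes was -0.0004. With the libraries most alike summed to 1 (1 and 2, 3 and 4, 5 and 6, and in Ctu1 iKO with DMSO 1 and 2, 3 alone, 4 and 5), an alternative added after seeing the data that leaves 3 against 3, 6 genes were called (0.0577%) and no member. The values stayed at 0.79 for Anxa3 (adjusted p = 0.0678), 0.61 for S100a11 (0.127) and 0.33 for Anxa5 (0.401, edgeR).

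Anxa3, a membrane-binding annexin, had footprint levels of 117, 131 and 140 CPM (lowest, median and highest of 6) in control and of 212, 227, 227, 228 and 219 CPM in the 5 Ctu1 iKO cultures. The groups did not overlap, and the log2 change was 0.79 with a standard error (SE) of 0.08 (adjusted p = 0.000212, edgeR). RNA of Anxa3 was 115, 113 and 87.2 CPM in control and 175, 176 and 167 CPM in Ctu1 iKO. These groups were separate as well, with a log2 change of 0.74 (SE 0.11, adjusted p = 0.0185, edgeR). Of all genes, 4.62% were separate in footprints of this comparison and 31.7% in RNA. Each footprint library was left out in turn and Anxa3 remained called, whereas its RNA call held in 3 of 6 such fits.

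S100a11, which binds the N-terminus of Anxa1, had footprint levels of 195, 208 and 220 CPM (lowest, median and highest of 6) in control and of 306, 309, 347, 304 and 303 CPM in Ctu1 iKO. No control culture reached the lowest Ctu1 iKO culture, and the log2 change was 0.60 (SE 0.07, adjusted p = 0.000966, edgeR). In RNA, S100a11 was at 137, 139 and 172 CPM in control and at 195, 213 and 278 CPM in Ctu1 iKO. Its RNA change of 0.64 on the log2 scale was of like size but had a larger SE of 0.15, and its adjusted p was 0.0522 (edgeR). It passed with the replicate number as a block (adjusted p = 0.000504, edgeR), in a fit that called 2831 genes (28.0%) in place of 518, and with DESeq2 (adjusted p = 0.000789).

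Anxa5, which binds phosphatidylserine and is widely used to stain apoptotic cells, had footprint levels of 601, 628 and 710 CPM (lowest, median and highest of 6) in control and of 748, 754, 813, 858 and 862 CPM in Ctu1 iKO. The groups were separate, and the log2 change was 0.34 (SE 0.07, adjusted p = 0.0303, edgeR), a call that held in 4 of 11 fits that each left out 1 library. RNA of Anxa5 rose by 0.46 on the log2 scale (SE 0.08, adjusted p = 0.0245, edgeR), from 434, 398 and 375 CPM to 529, 574 and 538 CPM, and this call held in 1 of 6 such fits.

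S100a4, which binds non-muscle myosin and is known from metastasis, had footprint levels of 335, 451 and 562 CPM (lowest, median and highest of 6) in control and of 720, 682, 737, 537 and 552 CPM in Ctu1 iKO. The groups overlapped, and the log2 change of 0.53 (SE 0.13) just missed the threshold (adjusted p = 0.0525, edgeR), while DESeq2 called it (adjusted p = 0.00498). RNA of S100a4 rose by 0.58 (SE 0.12, adjusted p = 0.0423, edgeR), from 334, 323 and 249 CPM to 404, 464 and 468 CPM, but in none of the fits that left out 1 library was it called, with adjusted p-values from 0.0592 to 0.143.

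Anxa2 and its partner S100a10, which together form the plasminogen-binding complex at the cell surface, gave smaller values. Anxa2 footprints were 1010, 1056 and 1315 CPM (lowest, median and highest of 6) in control and 1328, 1464, 1280, 1312 and 1381 CPM in Ctu1 iKO, with a log2 change of 0.28 (SE 0.09, adjusted p = 0.103, edgeR). S100a10 footprints were 532, 603 and 664 CPM in control and 696, 723, 734, 589 and 680 CPM in Ctu1 iKO, with a log2 change of 0.20 (SE 0.08, adjusted p = 0.231, edgeR). Both genes overlapped between the genotypes in footprints but not in RNA. With fewer libraries, 31.7% of all genes did not overlap in RNA, against 4.62% in footprints. The RNA log2 changes were 0.33 (SE 0.10) and 0.36 (SE 0.08). In RNA the adjusted p-values were 0.0967 for Anxa2 and 0.0548 for S100a10, and both passed with the replicate block (0.00371 and 0.00528, edgeR) and with DESeq2 (0.0264 and 0.00298).

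S100a6, the calcium sensor also known as calcyclin, had a log2 change of 0.17 in footprints (SE 0.08, adjusted p = 0.298, edgeR), with 3610, 3752 and 4447 CPM (lowest, median and highest of 6) in control and 4880, 4651, 4139, 4209 and 4074 CPM in Ctu1 iKO. Its RNA change was 0.36 (SE 0.12) with an adjusted p of 0.112, or of 0.00719 with the replicate block (edgeR). Anxa1, an anti-inflammatory ligand of formyl peptide receptors, differed by 0.01 in footprints (SE 0.09, adjusted p = 0.974, edgeR), and Anxa11, an annexin with a long N-terminus that tethers RNA granules to lysosomes, by 0.06 (SE 0.09, adjusted p = 0.768, edgeR). Levels of Anxa1 were 1290, 1361 and 1578 CPM (lowest, median and highest of 6) in control and 1325, 1287, 1377, 1678 and 1407 CPM in Ctu1 iKO, which overlap over nearly their whole range. RNA of Anxa11 was at 51.4, 48.3 and 50.3 CPM in control and at 51.9, 50.4 and 47.9 CPM in Ctu1 iKO, with a log2 change of 0.02 (SE 0.06).

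Anxa8, an annexin with anticoagulant activity, was rare, with 17 to 248 footprints per library in this comparison. Its footprint levels spread from 0.87 to 5.67 CPM in control and from 1.42 to 10.3 CPM in Ctu1 iKO, and the log2 change of 1.08 had an SE of 0.53 (adjusted p = 0.307, edgeR). In RNA, levels of 0.85, 1.35 and 2.46 CPM in control and 3.57, 5.04 and 14.7 CPM in Ctu1 iKO did not overlap, as for 31.7% of all genes. The log2 change of 2.33 (SE 0.59) had an adjusted p of 0.0626, and of 0.000228 with the replicate block (edgeR). In fits that left out 1 library the change ranged from 1.47 to 2.84, and it was called in 0 of 6. In RNA as a whole, Anxa3, Anxa5 and S100a4 of the 10 members were called, in a comparison that called 518 of 10119 genes (5.12%), 336 higher and 182 lower (263 and 210 with library totals), and the members' median log2 change was 0.41 against -0.002 for all genes.

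**Figure D3:**
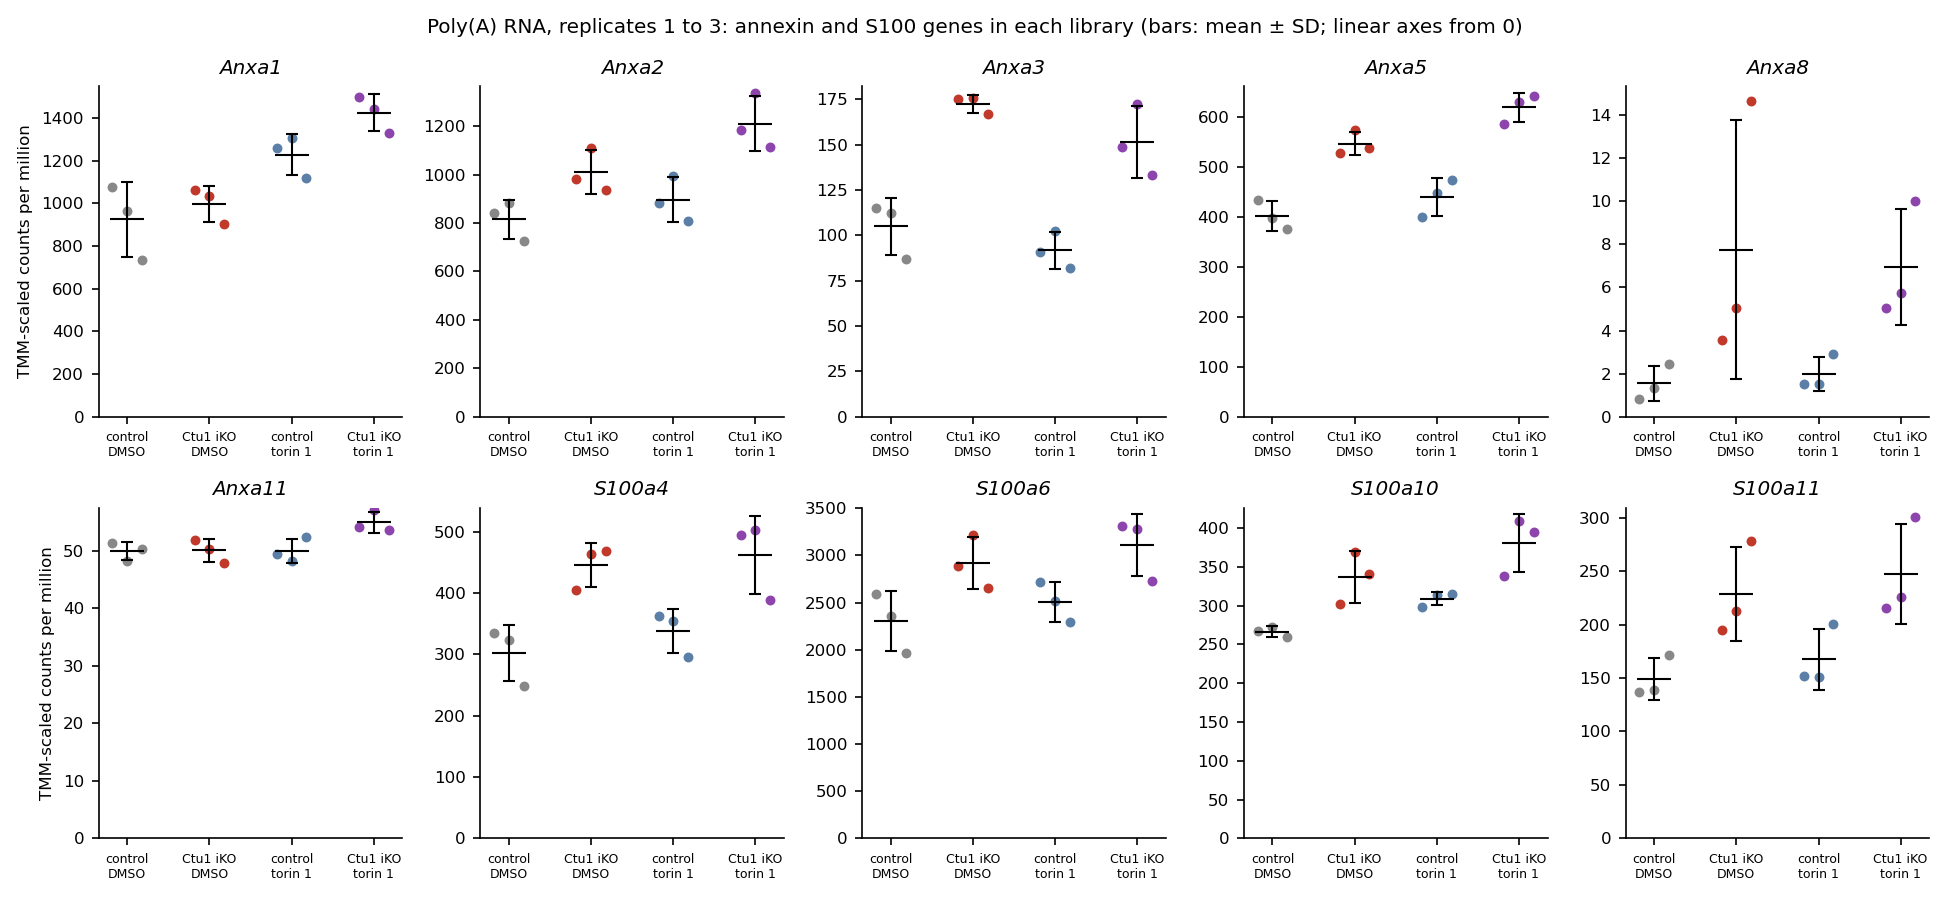
Poly(A) RNA level (y axis, TMM-scaled CPM, linear from 0) of each member in replicates 1 to 3 of each group (x axis), with points for libraries and bars for mean ± SD. All members but Anxa1 and Anxa11 lie above the control libraries of the same treatment in Ctu1 iKO with either treatment. Of all genes, 14.4% were higher in that way with DMSO and 13.3% with torin 1. Anxa8 with torin 1 is a description, since it was listed only through the group in which it was higher. Anxa11 stays between 47.9 and 57.1 CPM in all 12 libraries.

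The same genotypes were then compared after 2 h of torin 1. Anxa3, Anxa5 and S100a11 rose in footprints, and none of the members fell, where 479 of 9913 genes were called (4.83%), 221 higher and 258 lower (281 and 202 with library totals). Anxa8 is described apart, since its presence in the table depended on the Ctu1 iKO libraries. The other 9 members had a median log2 change of 0.30 and all genes 0.01. With neighbouring libraries summed as above, 40 genes were called (0.404%) and no member, with adjusted p-values of 0.14 for Anxa3, 0.198 for S100a11 and 0.204 for Anxa5 (edgeR). Each group of libraries entered several of the comparisons given here, so that comparisons with a group in common share its samples and are not independent.

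Anxa3 footprints were 115, 117 and 145 CPM (lowest, median and highest of 6) in control with torin 1 and 168, 179 and 199 CPM in Ctu1 iKO with torin 1, with a log2 change of 0.56 (SE 0.09, adjusted p = 0.00213, edgeR). S100a11 footprints were 242, 251 and 267 CPM against 306, 358 and 385 CPM, a log2 change of 0.47 (SE 0.08, adjusted p = 0.0038, edgeR). Anxa5 footprints were 612, 760 and 802 CPM against 954, 1042 and 1173 CPM, a log2 change of 0.53 (SE 0.09, adjusted p = 0.00324, edgeR). In each of these 3 genes the lowest Ctu1 iKO culture lay above the highest control culture, as in 1.8% of 9857 genes (and 2.52% were lower in that way). The torin 1 tables hold genes with at least 100 footprints in 1 library, and Anxa8 reached 57 at most in control and 179 in Ctu1 iKO, so it was listed only through the group in which it was higher. Given as a description, its levels were 0.40, 1.75 and 3.22 CPM against 4.51, 5.69 and 13.7 CPM, a log2 change of 2.08 (SE 0.41). In fits that each left out 1 library, added after seeing the data, Anxa3, Anxa5 and S100a11 were called in 12 of 12.

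The other 6 members were higher in Ctu1 iKO by 0.12 (S100a10) to 0.55 (S100a4) on the log2 scale without passing the test. The replicate numbers paired the cultures here, and the block raised the number of genes called from 479 to 1425 (14.4%). The block, here and below, still counts libraries of neighbouring numbers as separate samples, so its p-values may be too small as well. With it 3 further members passed, namely Anxa2 with a log2 change of 0.30 (adjusted p = 0.0683 without the block and 0.00317 with it), S100a4 with 0.54 (0.12 and 0.000578) and S100a6 with 0.19 (0.499 and 0.0181, all edgeR). Anxa2 was at 1006, 1101 and 1318 CPM in control and at 1236, 1434 and 1464 CPM in Ctu1 iKO. S100a4 was at 404, 505 and 757 CPM and at 595, 717 and 1206 CPM, so these 2 genes overlapped between the genotypes.

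In RNA with torin 1, Anxa3 was the 1 member called of the 9 without Anxa8, in a comparison that called 126 of 9650 genes (1.31%), 92 higher and 34 lower (57 and 41 with library totals). Its levels of 91.0, 102 and 82.2 CPM in control and 149, 173 and 133 CPM in Ctu1 iKO gave a log2 change of 0.73 (SE 0.12, adjusted p = 0.0492, edgeR), and the call held in 1 of 6 fits that left out a library. Anxa5 had a log2 change of 0.50 (SE 0.09, adjusted p = 0.0551) and S100a11 of 0.57 (SE 0.17, adjusted p = 0.133, edgeR). Each of these 9 members was higher in every Ctu1 iKO library than in every control library, as were 13.3% of 9610 genes (and 13.1% were lower in that way). With the replicate block, these members but Anxa11 were called, with adjusted p-values between 0.000113 for Anxa3 and 0.0082 for Anxa1, in a fit that called 3162 genes (32.8%). As a description under the same limit as its footprints, Anxa8 RNA was at 1.54, 1.53 and 2.91 CPM in control and at 5.07, 5.76 and 10.0 CPM in Ctu1 iKO, a log2 change of 1.81 (SE 0.35).

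Torin 1 was then compared with DMSO in control cells. S100a11 rose and was the 1 member called of 10, while 714 of 9856 genes were called (7.24%), 287 higher and 427 lower (602 and 327 with library totals). Its levels went from 195, 208 and 220 CPM (lowest, median and highest of 6) with DMSO to 242, 251 and 267 CPM with torin 1. The groups were separate, as were 5.44% of 9856 genes. The log2 change was 0.28 (SE 0.06, adjusted p = 0.0142, edgeR). This call held in 12 of 12 fits that each left out 1 library, added after seeing the data. It was lost with neighbouring libraries summed (0.26, adjusted p = 0.303, edgeR), where 200 genes were called (2.03%). Of the other members 7 had positive values, up to 0.28 for Anxa1 (SE 0.10, adjusted p = 0.112) and 0.27 for S100a10 (SE 0.10, adjusted p = 0.131), and Anxa3 with -0.05 and Anxa8 with -0.55 had negative ones (edgeR). The median over the members was 0.17, and over all genes 0.02. With library totals in place of TMM the median of all genes was 0.10 and the value of Anxa3 became 0.04.

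The replicate numbers paired these cultures, and the block raised the number of genes called from 714 to 2019 (20.5%). With it Anxa1 (log2 change 0.27, adjusted p = 0.00534), S100a10 (0.26, adjusted p = 0.00516), S100a4 (0.24, adjusted p = 0.0206) and Anxa5 (0.17, adjusted p = 0.0251) were called besides S100a11 (edgeR). Anxa1 was at 1290, 1361 and 1578 CPM with DMSO and at 1495, 1658 and 2164 CPM with torin 1, which overlap.

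RNA of control cells gave no member called of 10, against 1259 of 9617 genes (13.1%), 547 higher and 712 lower (445 and 891 with library totals). S100a10 came nearest, with 267, 273 and 259 CPM with DMSO and 299, 313 and 314 CPM with torin 1, a log2 change of 0.21 (SE 0.06, adjusted p = 0.0621, edgeR). Anxa1 RNA was 1078, 962 and 735 CPM with DMSO and 1259, 1306 and 1120 CPM with torin 1, a log2 change of 0.41 (SE 0.14, adjusted p = 0.106, edgeR). Neither gene overlapped between the treatments, as for 33.1% of 9617 genes, and DESeq2 called both (adjusted p = 0.00266 for S100a10 and 0.0264 for Anxa1). With the replicate block, Anxa1, Anxa2, S100a4, S100a6, S100a10 and S100a11 were called as higher and Anxa3 as lower, with adjusted p-values from 0.000202 (Anxa1) to 0.0287 (S100a6), in a fit that called 4206 genes (43.7%).

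**Figure D4:**
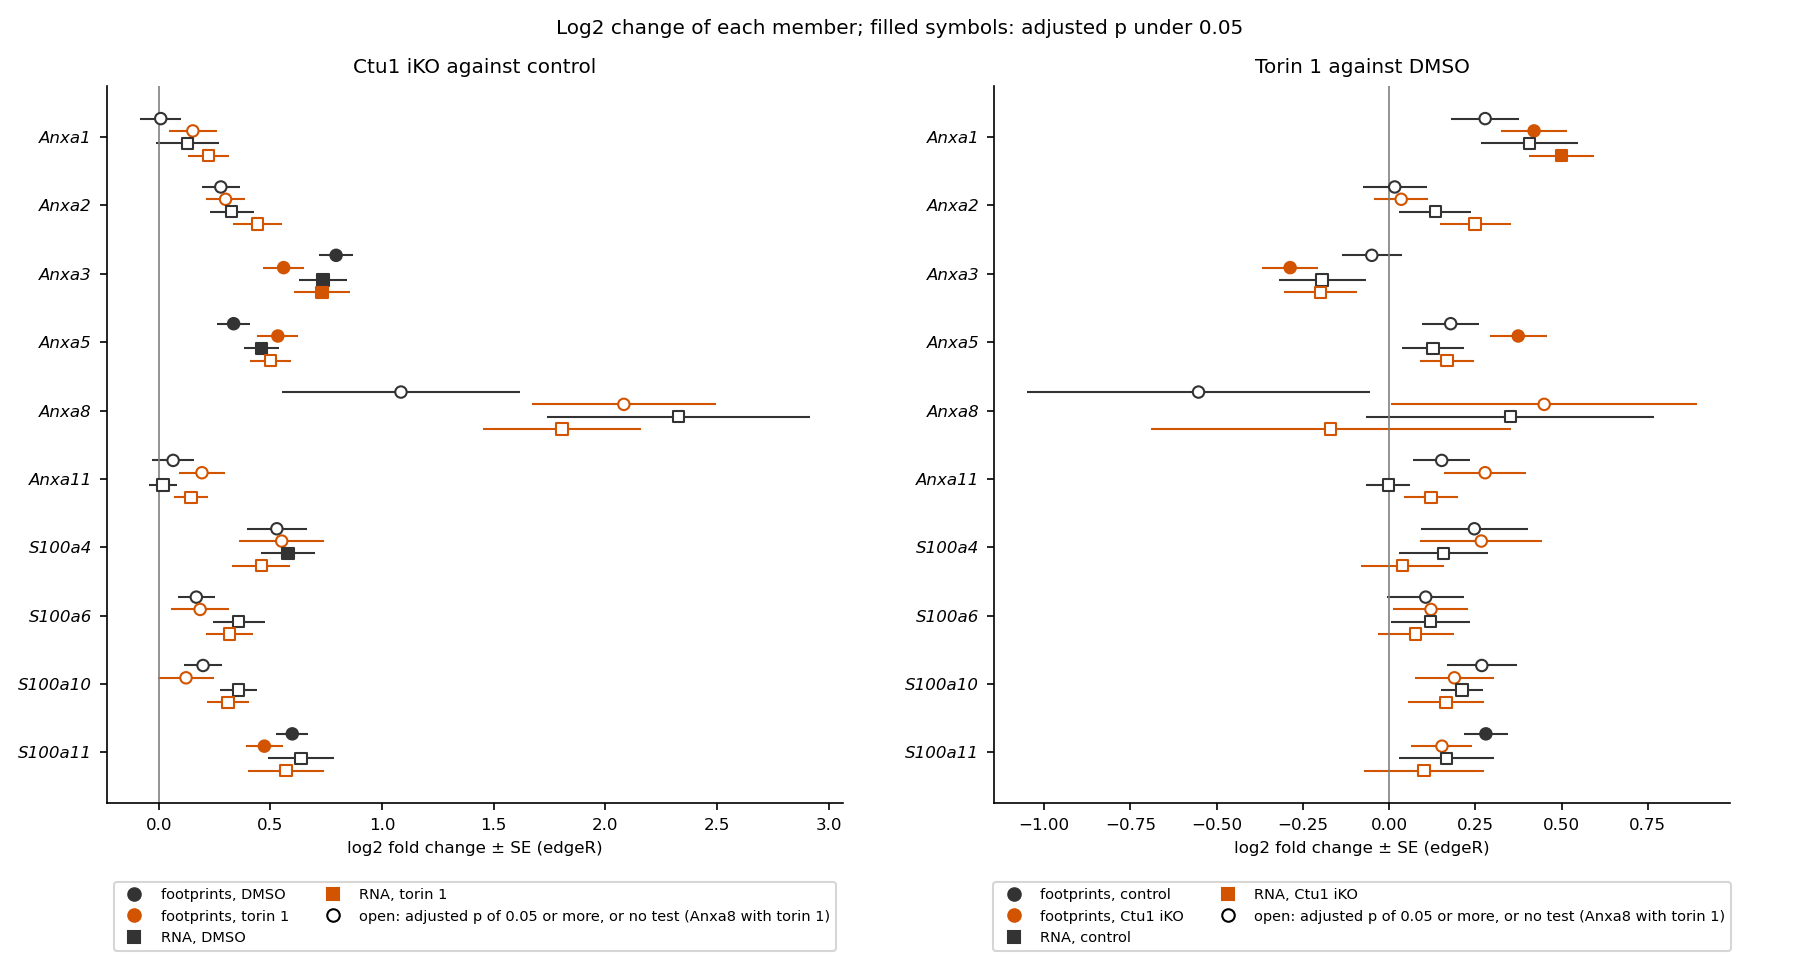
Log2 fold change ± SE (x axis, edgeR) of each member (y axis) in footprints and RNA, for Ctu1 iKO against control on the left and torin 1 against DMSO on the right. Filled symbols have an adjusted p under 0.05, Anxa8 with torin 1 on the left is open as a description without a test, and on the left every symbol lies above 0, whereas on the right Anxa3 lies below 0 in all 4 comparisons (-0.05 to -0.29), with a value of 0.04 in footprints of control cells when library totals replace TMM.

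In Ctu1 iKO cells, torin 1 raised footprints of Anxa1 and Anxa5 and lowered those of Anxa3, where 788 of 9855 genes were called (8.0%), 343 higher and 445 lower (580 and 317 with library totals). Anxa1 went from 1325, 1287, 1377, 1678 and 1407 CPM with DMSO to 1684, 1917 and 2149 CPM (lowest, median and highest of 6) with torin 1, a log2 change of 0.42 (SE 0.10, adjusted p = 0.0157, edgeR). Anxa5 went from 748, 754, 813, 858 and 862 CPM to 954, 1042 and 1173 CPM, a log2 change of 0.37 (SE 0.08, adjusted p = 0.0123, edgeR). Both groups were separate, by a narrow gap for Anxa1, as were 8.16% of 9855 genes. With neighbouring libraries summed, 289 genes were called (2.93%) and no member, with adjusted p-values of 0.162 for Anxa1, 0.185 for Anxa5 and 0.251 for Anxa3 (edgeR).

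Anxa3 footprints fell by 0.29 on the log2 scale in Ctu1 iKO (SE 0.08, adjusted p = 0.0453, edgeR), from 212, 227, 227, 228 and 219 CPM to 168, 179 and 199 CPM, and the groups did not overlap. This call is near the threshold: it held in 1 of 11 fits that left out a library, and library totals in place of TMM moved the value to -0.19 (adjusted p = 0.17). Even so, the lowest Ctu1 iKO culture with torin 1, at 168 CPM, lay above the highest control culture of either treatment, at 145 CPM. The 4 S100 genes had values between 0.12 and 0.27 in this comparison, and none was called.

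RNA of Anxa1 rose in Ctu1 iKO with torin 1, from 1061, 1033 and 902 CPM to 1500, 1443 and 1330 CPM, with a log2 change of 0.50 (SE 0.10, adjusted p = 0.0226, edgeR). It was the 1 member called of 10, against 794 of 9619 genes (8.25%), 359 higher and 435 lower (289 and 650 with library totals), and the call held in 1 of 6 fits that left out a library. Anxa3 RNA had a value of -0.20 (SE 0.11, adjusted p = 0.302, edgeR). Anxa2 RNA had 0.25 (SE 0.10) and was called with the replicate block (adjusted p = 0.19 without it and 0.00624 with it, edgeR), in a fit that called 3378 genes (35.1%).

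Whether torin 1 acted differently in the 2 genotypes was tested as an interaction. None of the 9 members without Anxa8, whose place in the torin 1 tables depended on genotype, was called in footprints, where 63 of 9857 genes were (0.639%), all of them with a smaller value in Ctu1 iKO. The lowest unadjusted p among these members was 0.0453, for Anxa3 with an interaction of -0.23 (SE 0.11), and the adjusted p was 0.9998 for each of the 9 (edgeR). Thus the fall of Anxa3 in Ctu1 iKO and its value of -0.05 in control were not shown to differ. In RNA no gene was called by edgeR (0.0% of 9616 genes), 140 had an unadjusted p under 0.05, and DESeq2 called 3. The 9 members ranged from -0.11 for S100a4 (SE 0.19) to 0.13 for Anxa11 (SE 0.09) there.

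Translational efficiency was taken as the change of footprints beyond the change of RNA in replicates 1 to 3 of both assays. No member was called in any of the 4 comparisons, where Anxa8 is left out of the genotypes with torin 1 for the reason given above. Loss of Ctu1 with DMSO called no gene by edgeR (0.0% of 10117), 380 had an unadjusted p under 0.05, and DESeq2 called 21. Anxa3 had a value of -0.04 (SE 0.15), S100a11 of -0.05 (SE 0.19) and Anxa5 of -0.14 (SE 0.12), whereas their footprints alone, over all replicates, had changed by 0.34 to 0.79. The median over the members was -0.14 against -0.005 over all genes. With torin 1, 11 of 9644 genes were called (0.114%), all lower in Ctu1 iKO, and the 9 members ranged from -0.32 for Anxa3 (SE 0.19) to 0.12 for Anxa11 (SE 0.17).

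Torin 1 against DMSO called 113 of 9616 genes for translational efficiency in control (1.18%), 5 higher and 108 lower, and 170 of 9615 in Ctu1 iKO (1.77%), 9 higher and 161 lower (29 and 124 with library totals). Members without Anxa8 had values of -0.20 to 0.16 in control and of -0.20 to 0.24 in Ctu1 iKO, with SEs of 0.12 to 0.29. Anxa8 had -1.25 (SE 0.88) and 0.61 (SE 0.95). The lowest unadjusted p of a member in the 4 comparisons was 0.119, for Anxa3. Library totals in place of TMM moved the median of all genes from 0.03 to 0.16 in control and from 0.03 to 0.20 in Ctu1 iKO.

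**Figure D5:**
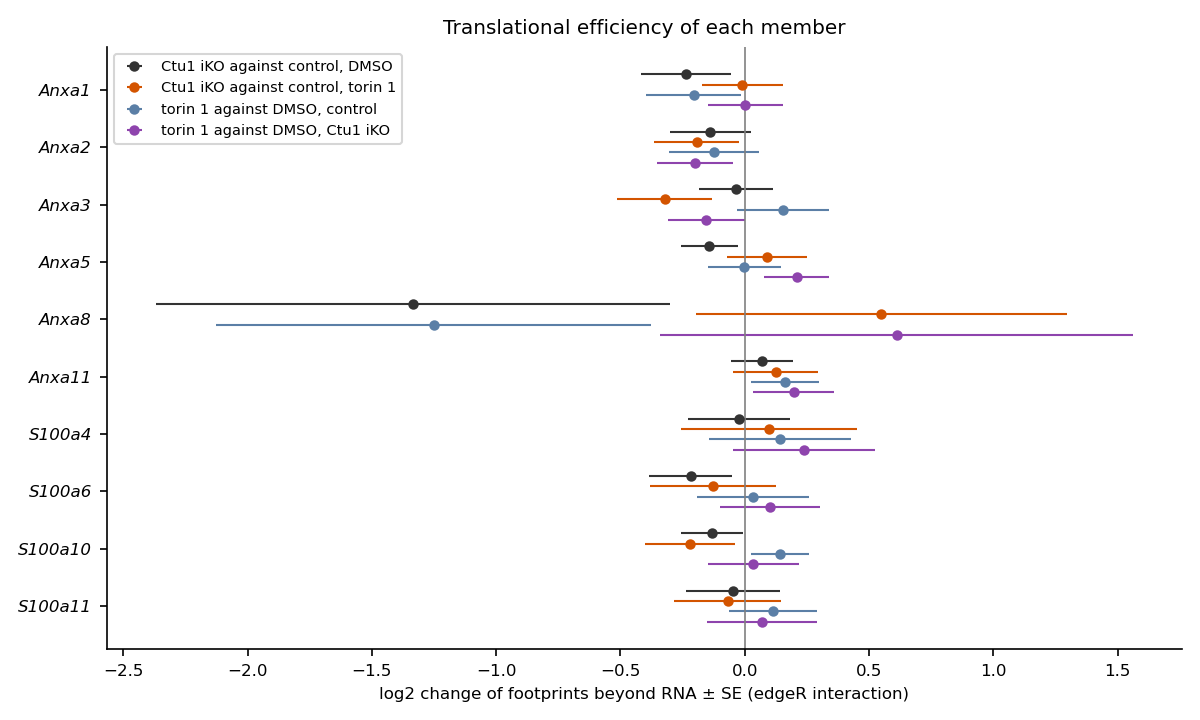
Log2 change of footprints beyond RNA ± SE (x axis, edgeR interaction of assay and group, replicates 1 to 3) of each member (y axis) in the 4 comparisons. No value passed the test, Anxa8 of the genotypes with torin 1 is a description, and Anxa8 has the widest errors, up to an SE of 1.03.

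Ratios of counts within a library are free of library scaling, and were taken for the known pairs. The footprint ratio of S100a11 to Anxa1 was 0.148 ± 0.012 in control (SD, n = 6) and 0.224 ± 0.028 in Ctu1 iKO (SD, n = 5) with DMSO, and ranges of 0.135 to 0.168 and 0.181 to 0.252 did not overlap. With torin 1 it was 0.150 ± 0.017 and 0.187 ± 0.031 (SD, n = 6), and the ranges overlapped, but in 6 of 6 pairs of libraries with the same number, which paired the samples here, it was higher in Ctu1 iKO. The footprint ratio of S100a10 to Anxa2 was 0.540 ± 0.077 in control and 0.506 ± 0.046 in Ctu1 iKO with DMSO, and 0.640 ± 0.104 and 0.569 ± 0.122 with torin 1, which all overlap. In control it was higher with torin 1 in 6 of 6 pairs, and with torin 1 it was higher in Ctu1 iKO in 1 of 6 pairs. In RNA that ratio lay between 0.286 and 0.388 in all 12 libraries, below every footprint value of 0.420 to 0.782. With torin 1 against DMSO it was higher in 3 of 3 RNA pairs in control and in 0 of 3 in Ctu1 iKO. In Ctu1 iKO against control it was higher in 2 of 3 RNA pairs with DMSO and in 0 of 3 with torin 1. The S100a6 to Anxa11 ratio was 37.9 ± 1.7 and 41.0 ± 3.9 in footprints with DMSO, and in RNA 46.1 ± 6.1 in control and 58.3 ± 4.8 in Ctu1 iKO (SD, n = 3). In RNA the libraries of control with DMSO, at 39.1 to 50.4, lay below those of Ctu1 iKO, at 55.5 to 63.8, whereas with torin 1 the ranges of 43.8 to 55.1 and 50.8 to 61.2 overlapped. The S100a11 to Anxa1 ratio overlapped between the genotypes in RNA with DMSO, at 0.127 to 0.233 and 0.184 to 0.309, and with torin 1, at 0.115 to 0.179 and 0.143 to 0.226, and it was higher in Ctu1 iKO in 3 of 3 pairs with either treatment. With torin 1 the RNA ratio of S100a6 to Anxa11 was likewise higher in Ctu1 iKO in 3 of 3 pairs. The RNA ratio of S100a11 to Anxa1 was higher with torin 1 than with DMSO in 0 of 3 pairs in either genotype. These ratios are of counts, not of molecules, and have no test.

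The family has further members in the tables. Anxa7, which binds membranes of secretory granules, rose in Ctu1 iKO with DMSO in footprints (log2 change 0.35, SE 0.08, adjusted p = 0.0327) and in RNA (0.30, SE 0.06, adjusted p = 0.0392, edgeR). Its RNA also rose with torin 1, by 0.39 in control (SE 0.06, adjusted p = 0.00767) and by 0.55 in Ctu1 iKO (SE 0.08, adjusted p = 0.00933, edgeR), while its footprints had 0.15 and 0.16 and were not called. Anxa4 was called in RNA of Ctu1 iKO with DMSO (0.28, SE 0.06, adjusted p = 0.0488, edgeR) and had 0.23 in footprints (adjusted p = 0.216), and Anxa6 was called in none of these comparisons. Between the genotypes with torin 1, RNA of Anxa7 rose by 0.46 (SE 0.07, adjusted p = 0.0462), 1 call of the 3 beside 1.31% of all genes, and Anxa4 and Anxa6 each had 0.38 (adjusted p = 0.0635 and 0.155, edgeR). Footprints of Anxa4, Anxa6 and Anxa7 had 0.25, 0.31 and 0.36 there, with adjusted p-values of 0.231, 0.359 and 0.0548 (edgeR). S100a1 RNA rose by 0.59 in Ctu1 iKO with DMSO (SE 0.12, adjusted p = 0.0431, edgeR), with a footprint value of 0.40 (adjusted p = 0.118). S100a13 had 0.58 in footprints (adjusted p = 0.0793) and 0.63 in RNA (adjusted p = 0.0566), S100a16 had 0.31 and 0.51, and S100a3, listed with DMSO alone, had -1.26 and -0.13, all without a call (edgeR). S100pbp, whose product binds an S100 protein and which shares the prefix, had -0.42 in footprints (adjusted p = 0.104, edgeR). Between the genotypes with torin 1 none of the 4 genes S100a1, S100a13, S100a16 and S100pbp was called, beside 4.83% of all genes in footprints and 1.31% in RNA. Their values were -0.06 (S100pbp) to 0.64 (S100a16) in footprints and -0.27 (S100pbp) to 0.88 (S100a16) in RNA.

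Of 26 partners and targets of annexins and S100 proteins, 22 were tested. With DMSO, 3 rose and 1 fell in footprints of Ctu1 iKO, 4 of 22 where 2.66% of all genes were called, with a list median of 0.08 against -0.0004 for all genes. Sri, the calcium sensor sorcin, rose by 0.50 (SE 0.10, adjusted p = 0.0201), the protease Ctsb by 0.42 (SE 0.09, adjusted p = 0.0279) and Myof, a ferlin of membrane repair, by 0.41 (SE 0.08, adjusted p = 0.0198), while Cacybp, the binding protein of S100a6, fell by 0.46 (SE 0.10, adjusted p = 0.0303, edgeR). RNA of Myof, Sri and Ctsb rose too, by 0.42 to 0.49, 3 of 22 beside 5.12% of all genes, and no partner fell in RNA. With torin 1, Myof (0.58, SE 0.14, adjusted p = 0.0304) and Ctsb (0.45, SE 0.10, adjusted p = 0.0222) rose and Cacybp (-0.55, SE 0.14, adjusted p = 0.0366) and Sugt1, another S100a6 target (-0.50, SE 0.12, adjusted p = 0.0293), fell in Ctu1 iKO (edgeR), 4 of 22 beside 4.83% of all genes. Torin 1 raised Plau, the urokinase protease that activates plasminogen, in control (0.67, SE 0.16, adjusted p = 0.0177, edgeR), 1 of 22 beside 7.24%, and none of the 22 was called in Ctu1 iKO, beside 8.0%.

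Of 20 calcium sensors of other families, 19 were tested. With DMSO, Capn2, the catalytic subunit of a calpain, rose by 0.38 in footprints of Ctu1 iKO (SE 0.08, adjusted p = 0.0224, edgeR) and was the 1 call of 19, beside 2.66% of all genes, with a list median of 0.12. Its RNA rose by 0.38 as well (SE 0.06, adjusted p = 0.0185, edgeR), together with that of the myosin light chain Myl6 (0.48, SE 0.07, adjusted p = 0.0174, edgeR). These were 2 of 19, beside 5.12%. With torin 1 no sensor was called in footprints between the genotypes, beside 4.83%. Torin 1 lowered Chp1, a calcineurin-like sensor, in Ctu1 iKO (-0.64, SE 0.18, adjusted p = 0.0467, edgeR), 1 of 19 beside 8.0%, and no sensor was called in control, beside 7.24%. Members of both lists were named in part with earlier results known, so their counts are descriptions.

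Values within subsets of replicates are given as a description for the 3 genes called in footprints with DMSO. Their groups did not overlap, so the direction within a subset was fixed in advance. With DMSO, the log2 ratio of mean CPM of Ctu1 iKO to control was 0.68 in replicates 1 and 2 and 0.85 from replicate 3 on for Anxa3, 0.56 and 0.62 for S100a11, and 0.29 and 0.37 for Anxa5. With torin 1 these were 0.35 and 0.68, 0.48 and 0.47, and 0.67 and 0.47. The subsets had opposite signs for Anxa1 with DMSO (-0.19 and 0.12) and for S100a10 with torin 1 (-0.04 and 0.21). In replicates 1 to 3 alone none of the members was called in footprints, in fits that called 1 to 178 genes.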

How the data were processed

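Ribosome footprints and poly(A) RNA (TruSeq stranded mRNA kit) were measured in 46 libraries of EPP2 cells. Reads were trimmed with cutadapt 3.4 and, per the labels, aligned with STAR (2.5.3a for footprints) to mm10, whereas the study's methods name a human build for the alignment. Footprint reads carried molecular identifiers handled with UMI-tools 1.1.1, and whether duplicates were collapsed is not given in the sources used here. The authors deposited raw counts per gene, already restricted to genes whose highest footprint count was at least 100, in separate tables for DMSO (10420 entries) and torin 1 (9936 entries). Entries of the 11 repeated symbols were left out.

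Counts were tested with edgeR 4.0.16 (R 4.3.3) by the quasi-likelihood test with TMM factors, for genes averaging 10 counts or more per library, and p-values were adjusted by Benjamini-Hochberg over all genes tested (called under 0.05). Of RNA, replicates 1 to 3 were used. Translational efficiency was the interaction of assay and group. Replicate numbers were taken as separate cultures, though the study's methods give 2 independent replicates on consecutive days and its legends 5 or 6, so p-values measure the spread between these samples and may be too small. Deviations of libraries with the same number correlated by over 0.1 in every pair for footprints with torin 1 against DMSO in control (0.435 to 0.641) and for footprints of the genotypes with torin 1 (0.319 to 0.547), and in the 4 RNA comparisons (0.488 to 0.837). In these the number was taken to pair the samples, and values with the replicate block are given where a call changed. Members and gene lists were chosen with earlier results of these data known. All 10 members are named, and of the other lists those called, with the further annexin and S100 genes. Coding sequences came from GENCODE M21 (GRCm38), and near-copies were searched with blastn 2.17.0. Alternatives were library totals in place of TMM, DESeq2 1.42.0, no filter, the replicate block, all 4 groups in 1 fit, replicates 1 to 3, a batch term, summing the footprint libraries most alike (added after seeing the data) and leaving out single libraries (added after seeing the data for the footprint comparisons of groups of 6). Scripts were tested on simulated data.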

Additional observations from a re-analysis of the deposited data

Results flagged for a closer look

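In 3 of 40 sets of footprint values of 1 member in 1 group (RNA groups of 3 were not tested), a single library lay far from the others by Dixon's test, where chance gives about 1 in 20. S100a6 footprints were 5766 CPM in replicate 1 of control with torin 1, against 3636 to 4147 CPM in the other libraries of that group. S100a6 was also high in replicate 1 of Ctu1 iKO with torin 1, at 6445 CPM against 4211 to 4686 CPM. S100a11 footprints were 347 CPM in replicate 3 of Ctu1 iKO with DMSO, against 303 to 309 CPM, and the call of S100a11 held without that library.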

How the results depend on the processing

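The 15 calls of members, without Anxa8 between the genotypes with torin 1, had the same direction in all 254 alternative fits and remained calls in 187 of them. With neighbouring footprint libraries summed none of the 10 footprint calls remained. Other member results gained a call, 28 with the replicate block, 16 with DESeq2 (4 in footprints and 12 in RNA), 8 with all RNA libraries as labelled, 6 with all 4 groups in 1 fit, 5 with a batch term and 4 with library totals. Numbers of genes called moved more. DESeq2 called 700 genes in footprints of Ctu1 iKO against control with DMSO and 842 with torin 1, 109 for the interaction, 1530 in RNA of the genotypes with DMSO and 1092 with torin 1, 1963 and 1609 in RNA with torin 1 against DMSO in control and Ctu1 iKO, 3 for the RNA interaction, and 21, 227, 316 and 102 for translational efficiency (genotypes with DMSO, torin 1 in control, torin 1 in Ctu1 iKO, genotypes with torin 1).

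With the replicate block, footprints gave 2019 genes for torin 1 in control, 1425 for the genotypes with torin 1 and 139 for the interaction, RNA gave 2831 (genotypes, DMSO), 4206 (torin 1, control), 3378 (torin 1, Ctu1 iKO) and 3162 (genotypes, torin 1), and translational efficiency with DMSO gave 1. Where numbers did not pair the samples, footprints of the genotypes with DMSO (correlations -0.101 to 0.463) gave 364 genes and S100a4 passed with the block (0.46, adjusted p = 0.0496, edgeR), and footprints for torin 1 in Ctu1 iKO (-0.033 to 0.42) gave 983 and Anxa3 did not pass (-0.28, adjusted p = 0.0658, edgeR). No other call of a member changed with the block than these and those given with the results.

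Replicates 1 to 3 alone gave 2, 138, 178, 1 and 2 genes in footprints (genotypes with DMSO, torin 1 in control, torin 1 in Ctu1 iKO, genotypes with torin 1, interaction), a batch term gave 737, 1218, 1368, 914 and 121, and neighbouring libraries summed (added after seeing the data) gave 6, 200, 289, 40 and 1. All 4 groups in 1 fit gave 1187 for footprints with torin 1 in Ctu1 iKO, 842 for footprints of the genotypes with torin 1, 1717 and 970 for the same in RNA, and 1 and 73 for translational efficiency of the genotypes with DMSO and torin 1. All RNA libraries as labelled gave 2677 for the genotypes with DMSO and 0 for torin 1 in Ctu1 iKO and for the genotypes with torin 1, where Anxa1 and Anxa3 RNA no longer passed. Translational efficiency of the genotypes gave 2 and 60 with all footprint libraries, and 1 and 3 with library totals (DMSO and torin 1). The cause was not tested.

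Leaving out 1 library gave 144 to 285 genes in footprints of the genotypes with DMSO and 527 to 921 for torin 1 in Ctu1 iKO. For footprints of torin 1 in control (559 to 737) and of the genotypes with torin 1 (301 to 572) these fits were added after seeing the data. In RNA it gave 0 to 511 for the genotypes with DMSO, 412 to 1233 for torin 1 in control, 123 to 1123 for torin 1 in Ctu1 iKO and 1 to 406 for the genotypes with torin 1. For translational efficiency it gave 63 to 104, 105 to 163 and 0 to 8 (torin 1 in control, torin 1 in Ctu1 iKO, genotypes with torin 1). Low counts limit Anxa8.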
